A study of Mus musculus with 4 samples.

Results

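The 10 genes *Ifit1*, *Ifit2*, *Ifit3*, *Ifit3b*, *Isg15*, *Isg20*, *Rsad2*, *Oasl1*, *Oasl2* and *Oas1a* are interferon-stimulated antiviral effectors, and their mRNA levels were followed through the cell types of mouse islets exposed to IL-1β and IFN-γ. The genes were taken by symbol from the 31053 genes counted in the study, as members of these gene families, and each of the 10 symbols was present once. The islets came from adult male C57BL/6 mice (C57BL6/J in the methods of the study) with no transgene or deletion named, were pooled across animals before they were divided, and were either left untreated or exposed as intact islets ex vivo for 6 h to IL-1β, to IFN-γ, or to IL-1β and IFN-γ together, before they were dispersed for 3′-end single-cell RNA sequencing. Each condition is 1 library made from 1 share of the same pool, so no difference between conditions has a replicate check, no p-value is given, and every interval below covers counting error only.

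IFIT proteins bind foreign RNA and block its translation. OAS proteins sense double-stranded RNA and, when catalytically active, make oligoadenylates; OASL proteins share the fold, and mouse OASL1 is known for limiting translation of *Irf7* mRNA. ISG15 is a ubiquitin-like protein that is attached to other proteins, ISG20 is an exonuclease that degrades RNA, and RSAD2, also called viperin, makes a nucleotide that terminates viral RNA chains. These genes are classical targets of type I and type III interferons, which act through a complex that holds STAT2 and IRF9 on interferon-stimulated response elements, and many are also reached by IFN-γ. β-Cells are targets of enteroviruses, and this class of genes is known from infected islets and from islets in type 1 diabetes.

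After cells with fewer than 200 or more than 4000 detected genes, or with more than 12% of counts from mitochondrial genes, were left out, 7471 of 12571 barcodes remained: 1521 untreated, 2018 from IL-1β, 2122 from IFN-γ and 1810 from the combination. Depth differed between the libraries, with medians of 15454 unique molecules (UMIs) per kept cell untreated, 7462.5 after IL-1β, 9615 after IFN-γ and 11123.5 after both. Cells with 1 dominant hormone (insulin above 3% of UMIs, glucagon above 2%, somatostatin above 1% or pancreatic polypeptide above 5%) are called β-, α-, δ- and PP-cells, and cells without one that carried at least 4 markers of a single other type are called endothelial-, macrophage-, mesenchymal-, ductal- or acinar-like. These are β-like, α-like, δ-like and PP-like cells, written without the suffix for brevity. This gave 4946 β-cells, 872 α-cells, 465 δ-cells and 149 PP-cells, with 129 endothelial-like and 140 macrophage-like cells. All 7 β-cell markers, all 6 α-cell markers and all 4 δ-cell markers were detected in at least 10% of the cells of their class, and 138, 17, 60 and 228 cells lay within 1.5-fold of the insulin, glucagon, somatostatin and pancreatic polypeptide limits, so the PP class, with fewer cells than lie near its limit, is the least firmly bounded. Clusters built without the 10 genes and the pathway lists split β-, α- and δ-cells largely by library: the 4 largest β-cell clusters drew 1000 of 1055 cells from the untreated library, 888 of 918 from IL-1β, 914 of 931 from IFN-γ and 997 of 1025 from the combination, and 139 of the 140 cells of 1 δ-cell cluster came from the combination, so a class is compared between libraries across different clusters. Insulin mRNA, which macrophages do not make, took 0.0961% to 0.517% of the UMIs of macrophage-like cells, a gauge of free RNA. Cells with more than 1 hormone (393) were not used, and 16 barcodes occurred in more than 1 library, 4 of them among the kept cells.

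All 4 *Ifit* genes lie on 1 stretch of chromosome 19 of mm10, all on the plus strand, in the order *Ifit2* (34550694 to 34576419), *Ifit3* (34583531 to 34588731), *Ifit3b* (34607970 to 34613401) and *Ifit1* (34640871 to 34650009). *Oasl2* (114896936 to 114912234) and *Oasl1* (114923240 to 114937915) are neighbors on the plus strand of chromosome 5, and *Oas1a* lies further along it on the minus strand (120896256 to 120907521). *Isg15* is on chromosome 4 (156199424 to 156200818, minus strand), *Isg20* on chromosome 7 (78913424 to 78920396, plus strand) and *Rsad2* on chromosome 12 (26442746 to 26456452, minus strand). Reads of 98 bases were used, and identical paralogous ends can make such reads ambiguous: of the 403 stretches of 98 bases in the last 500 bases of the *Oas1a* transcript, 166 (41.2%) also occur in *Oas1g*, and of those of *Ifit3*, 19 (4.71%) occur in *Ifit3b*. None of the stretches of the other 8 genes occurs in a transcript of another gene, and *Oas1a* is the gene whose reads are most often shared with a copy.

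The 250 bases before the transcription start are shown for 6 of the genes because the results below separate *Isg15* and *Rsad2*, which were far higher with both cytokines than with IFN-γ alone in β-cells, from *Ifit1*, *Ifit3* and *Ifit3b*, which were not, and both from *Isg20*, which was higher with IL-1β than with IFN-γ. The sequences are RefSeq windows of build GRCm38.p6, whose starts can lie some bases from the gene positions above, written 5′ to 3′ on the strand of the gene, and capitals mark every match to the core of the interferon-stimulated response element, searched on both strands as a GAAA and a second GAAA in the same direction with any 2 bases between them (TTTC and TTTC when read on the other strand), with overlapping matches run together. They span chr19:34640639-34640888 (plus strand), chr19:34583279-34583528 (plus), chr19:34607707-34607956 (plus), chr4:156200819-156201068 (minus), chr12:26456453-26456702 (minus) and, for the first of 3 RefSeq starts of *Isg20*, chr7:78913174-78913423 (plus).
Ifit1: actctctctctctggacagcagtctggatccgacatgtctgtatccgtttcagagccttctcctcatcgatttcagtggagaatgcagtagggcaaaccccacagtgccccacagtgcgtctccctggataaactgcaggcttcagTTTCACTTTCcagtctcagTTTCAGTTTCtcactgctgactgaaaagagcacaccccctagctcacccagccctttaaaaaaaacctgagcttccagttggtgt
Ifit3: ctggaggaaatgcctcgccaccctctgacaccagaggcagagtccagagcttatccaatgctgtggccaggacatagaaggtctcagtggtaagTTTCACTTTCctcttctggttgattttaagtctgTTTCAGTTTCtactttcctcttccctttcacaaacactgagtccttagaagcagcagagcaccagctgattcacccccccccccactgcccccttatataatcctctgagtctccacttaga
Ifit3b: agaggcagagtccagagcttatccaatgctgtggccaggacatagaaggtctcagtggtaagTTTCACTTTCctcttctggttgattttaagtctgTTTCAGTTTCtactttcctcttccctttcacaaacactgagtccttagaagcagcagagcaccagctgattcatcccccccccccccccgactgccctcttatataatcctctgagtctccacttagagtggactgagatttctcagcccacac
Isg15: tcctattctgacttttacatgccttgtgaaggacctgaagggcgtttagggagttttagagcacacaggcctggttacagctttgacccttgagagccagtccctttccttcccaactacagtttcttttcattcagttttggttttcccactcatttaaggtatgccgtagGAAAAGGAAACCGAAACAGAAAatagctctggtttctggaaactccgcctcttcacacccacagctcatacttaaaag
Rsad2: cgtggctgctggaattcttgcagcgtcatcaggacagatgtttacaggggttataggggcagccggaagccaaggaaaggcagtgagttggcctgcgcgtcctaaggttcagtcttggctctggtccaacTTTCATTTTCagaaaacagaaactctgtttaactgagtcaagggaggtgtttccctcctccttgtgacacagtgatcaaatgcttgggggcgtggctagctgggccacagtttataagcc
Isg20: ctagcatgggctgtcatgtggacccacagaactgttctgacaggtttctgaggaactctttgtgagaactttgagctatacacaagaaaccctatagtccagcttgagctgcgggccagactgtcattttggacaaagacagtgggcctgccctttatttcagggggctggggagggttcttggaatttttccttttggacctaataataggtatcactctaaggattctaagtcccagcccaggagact
*Ifit1*, *Ifit3* and *Ifit3b* each hold 2 matches, and the windows of *Ifit3* and *Ifit3b* share a run of 169 identical bases that contains both. *Isg15* holds 3 matches, which overlap in a single block 57 to 78 bases before the start, and *Rsad2* holds 1. The window of *Isg20* shown holds none, and neither do its other 2 windows. In all, 6 of the 10 genes have a match in at least 1 window, *Oas1a* with 2 being the sixth, whereas 3.46% of the 27025 genes with a window have one. A gamma-activated site, searched as TTCNNNGAA, was found for 3 of the 10 genes (*Ifit2*, *Isg20* and *Oas1a*) against 8.13% of genes, and a κB consensus for 1 (*Oasl1*) against 4.46%. A match is a description of the letters in these windows, and a window without one says nothing about binding elsewhere.

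In untreated islets 9 of the 10 genes were close to silent in β-cells, whereas *Isg20* was readily detected. Levels are given as UMIs per 1000000 UMIs of all cells of the class (CPM), a 3′-end measure that does not scale with transcript length. *Isg20* stood at 136 CPM (95% Poisson interval 131 to 142) and supplied 86.9% of all UMIs of the 10 genes in untreated β-cells. The other 9 lay between 0.0999 CPM for *Ifit2* and 7.79 for *Ifit1*, and a single cell with 94 UMIs from 7 of the 9 genes supplied 22.8% of their summed 412 UMIs.

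With the IFIT genes, IFN-γ made the larger difference in β-cells and *Ifit2* was higher again with the second cytokine. *Ifit1* was at 7.79 CPM untreated, 28.6 after IL-1β, 144 after IFN-γ and 195 after both. *Ifit2* was at 0.0999, 1.73, 15.7 and 60.9 in the same order, the untreated value resting on 2 UMIs and 13 of the 17 UMIs with IL-1β coming from 1 cell. *Ifit3* was at 2.25, 7.42, 90.3 and 79.9, and its close copy *Ifit3b* at 0.749, 1.32, 16.3 and 15.9. Thus IFN-γ alone brought *Ifit1* to 18.5-fold (15.7 to 21.9) and *Ifit3* to 40.2-fold (29.9 to 55.4) the untreated level, and adding IL-1β to IFN-γ raised *Ifit2* a further 3.87-fold (3.35 to 4.50), while *Ifit1* was at 1.35-fold (1.27 to 1.43). A single untreated cell held 54 of the 156 untreated *Ifit1* UMIs, and without the highest cell of each class and library, an alternative added after the data were seen, *Ifit1* was 28.1-fold higher with IFN-γ and 37.6-fold with both. *Ifit3* was 0.884-fold (0.817 to 0.957) the level of IFN-γ alone, a difference that turns to 1.10-fold once the median of all genes in that comparison, 0.805-fold, is set to 1.

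*Isg15* and *Rsad2*, like *Ifit2*, were far apart between IFN-γ alone and the combination in β-cells. *Isg15* was at 0.749 CPM untreated, 2.84 after IL-1β, 25.6 after IFN-γ and 124 after both. *Rsad2* was at 3.85, 11.99, 47.4 and 163. IL-1β alone thus left both far below the IFN-γ library, yet with both cytokines *Isg15* was 4.82-fold (4.31 to 5.41) and *Rsad2* 3.43-fold (3.15 to 3.74) higher than with IFN-γ. The sum of the 2 separate rises would have put *Isg15* at 27.7 and *Rsad2* at 55.6 CPM, so the measured levels were 4.46 and 2.93 times the additive ones.

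*Isg20* behaved differently from the other 9 genes. It was at 136 CPM untreated, 478 after IL-1β, 241 after IFN-γ and 539 after the combination, and the library with IL-1β thus stood above the library with IFN-γ. IL-1β raised it 3.50-fold (3.34 to 3.67), and it was at 1.76-fold (1.68 to 1.86) with IFN-γ, short of the 2-fold limit. With hormone genes left out of the totals these ratios were 2.56-fold and 1.41-fold. Its level with both cytokines was 0.926 times the additive one. Among the 10 genes it was the only one whose IL-1β level exceeded its IFN-γ level in β-cells, and the same order held in α-, δ- and PP-cells.

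The OAS genes divided in the same way as the IFIT genes. *Oasl2* was at 3.65 CPM untreated, 26.4 after IL-1β, 159 after IFN-γ and 153 after both. Its IL-1β ratio in β-cells, 7.24-fold (5.57 to 9.53), was the largest of the 10 genes among those with enough counts. With hormone genes left out of the totals this ratio was 5.31-fold. IL-1β added to IFN-γ left *Oasl2* at 0.959-fold (0.905 to 1.02). *Oasl1* (0.699, 1.12, 4.401 and 12.99) and *Oas1a* (0.749, 1.12, 3.84 and 12.99) stayed low throughout, and with IL-1β their intervals included the untreated level, at 1.60-fold (0.657 to 3.79) and 1.49-fold (0.620 to 3.48). Both were 2.95-fold (2.22 to 3.98) and 3.38-fold (2.50 to 4.64) higher with both cytokines than with IFN-γ, but *Oas1a* is the gene that shares much of its end with *Oas1g*, which itself was at 4.54 CPM with both.

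**Figure D1:**
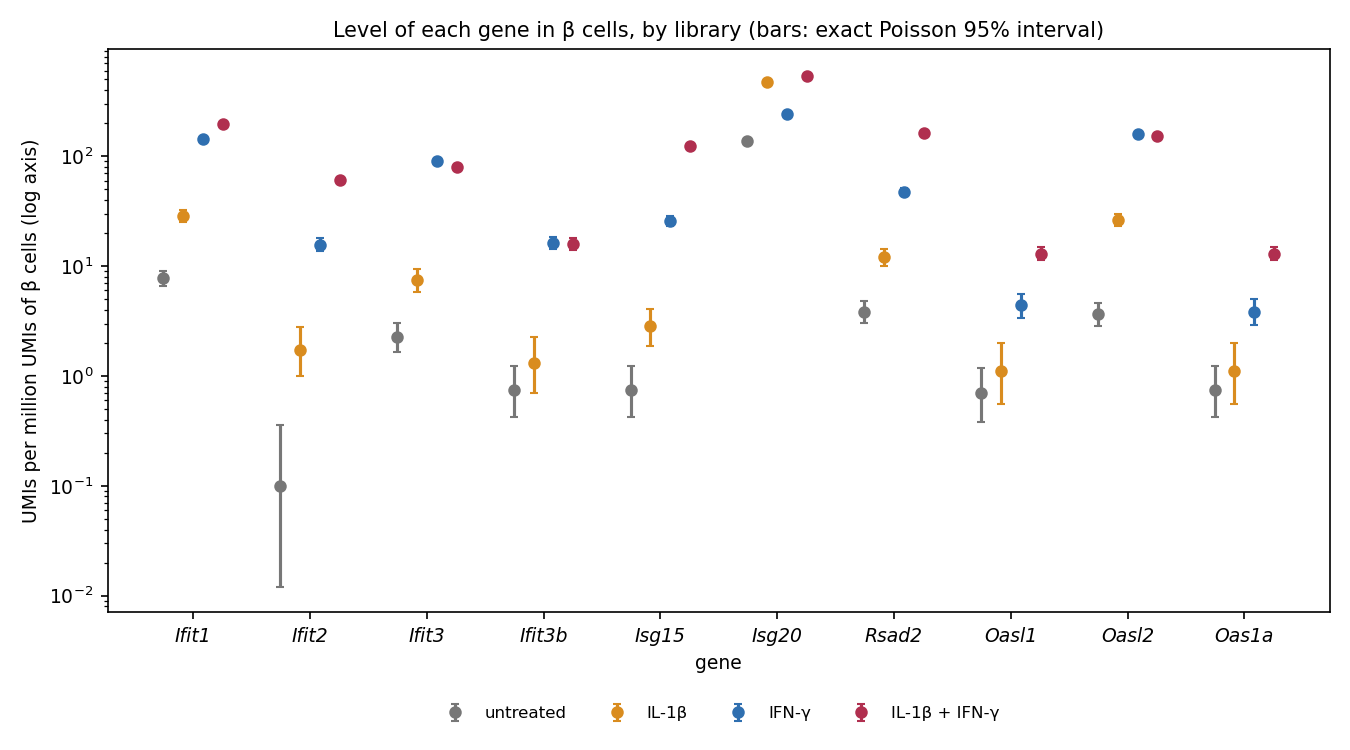
Level of the 10 genes in β-cells in CPM on a log axis, by library; points are the summed level of all β-cells of a library and bars its exact Poisson 95% interval. *Ifit3*, *Ifit3b* and *Oasl2* reach with IFN-γ alone about the level they have with both cytokines and *Ifit1* is 1.35-fold higher with both, whereas *Ifit2*, *Isg15*, *Rsad2*, *Oasl1* and *Oas1a* step up again with both, and *Isg20* is higher with IL-1β than with IFN-γ.

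Counted over the group, with a gene called where its level differed at least 2-fold and the pair of libraries held at least 20 UMIs, 6 of 9 tested genes were higher with IL-1β than untreated in β-cells, against 17.1% of the 12163 genes tested. Insulin mRNA took 42.1% of β-cell UMIs untreated and 21.9% with IL-1β, the median gene stood 0.34 higher on the log2 scale in that comparison, and 7.88% of genes pass if hormone genes are left out of the totals. With 10 CPM added to both levels *Ifit3* (1.42-fold), *Isg15* (1.19-fold) and *Rsad2* (1.59-fold) no longer pass, which leaves 3 genes (5.64% of all genes). With IFN-γ 9 of 10 genes were higher (6.31% of all genes), with *Isg20* just short of the limit, and with both cytokines 10 of 10 (11.7%). Adding IL-1β to IFN-γ raised 6 of 10 (6.27%), namely *Ifit2*, *Isg15*, *Isg20*, *Rsad2*, *Oasl1* and *Oas1a*, and lowered none past 2-fold (with 10 CPM added to both levels *Oasl1*, at 1.60-fold, and *Oas1a*, at 1.66-fold, no longer pass). Adding IFN-γ to IL-1β raised 9 of 10 (2.99%), all but *Isg20*. Of these, *Ifit2*, *Ifit3b*, *Oasl1* and *Oas1a* held fewer than 20 UMIs with IL-1β. They met the minimum only through the combined library, so their calls say little beyond their levels. The median gene stood 0.30 higher with IFN-γ than untreated and 0.31 lower with both than with IFN-γ on the log2 scale (a median ratio of 0.805). The comparisons share libraries, the untreated one in 3 of them, so the counts are not independent. Of the 10 genes 5 (*Ifit1*, *Ifit3*, *Isg20*, *Rsad2* and *Oasl2*) held 20 UMIs in untreated β-cells, and the others met the minimum only together with a treated library, so for them a count against untreated says little beyond their levels.

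The extra mRNA with both cytokines could come from more cells or from more molecules per cell. Each cell was therefore thinned to 4000 UMIs, which leaves 1250 β-cells with IFN-γ and 1243 with both. *Isg15* was then detected in 7.92% of β-cells with IFN-γ and in 26.8% with both, and *Ifit2* in 5.52% and 13.7%. *Rsad2* went from 13.8% to 20.4% of cells, while before thinning its mean count per positive cell went from 1.94 to 5.41 UMIs and its highest count in 1 cell from 24 to 107. *Ifit3* went the other way, from 27.6% to 15.2% of cells (all UMIs, 47.9% to 26.6%), while its mean count per positive cell went from 2.06 to 3.68 UMIs. The summed *Ifit3* level was therefore nearly the same in both libraries but came from fewer cells with both cytokines. In untreated β-cells the 4 genes were found in 0 to 0.872% of thinned cells. This does not measure the free RNA of the treated libraries, where no class is known to lack all 4 genes. *Rsad2* gave no UMI in the mesenchymal-like cells with IFN-γ, which were few. In α-cells of the IFN-γ and combined libraries, also at 4000 UMIs, *Isg15* was found in 9.64% and 17.1%, *Ifit2* in 2.86% and 9.49%, *Rsad2* in 6.79% and 7.59% and *Ifit3* in 10.7% and 9.49% of cells, and the part of free RNA in any of these shares was not tested.

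The number of the 10 genes found in 1 cell followed the same pattern. At 4000 UMIs, at least 3 of the genes were found in 0.174% of untreated β-cells (exact binomial 95% interval 0.0211 to 0.628), 2.20% after IL-1β (1.42 to 3.26), 35.3% after IFN-γ (32.6 to 38.0) and 43.2% after both (40.4 to 46.0). With all UMIs the last 2 shares were 70.1% and 74.5%. For the 9 genes other than *Isg20*, the 5% of β-cells with the highest counts held 19.1% of their UMIs with IFN-γ and 38.4% with both, and the highest single cell had 61 and 198 UMIs. β-Cells with both cytokines were thus more unequal in these transcripts than β-cells with IFN-γ alone.

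**Figure D2:**
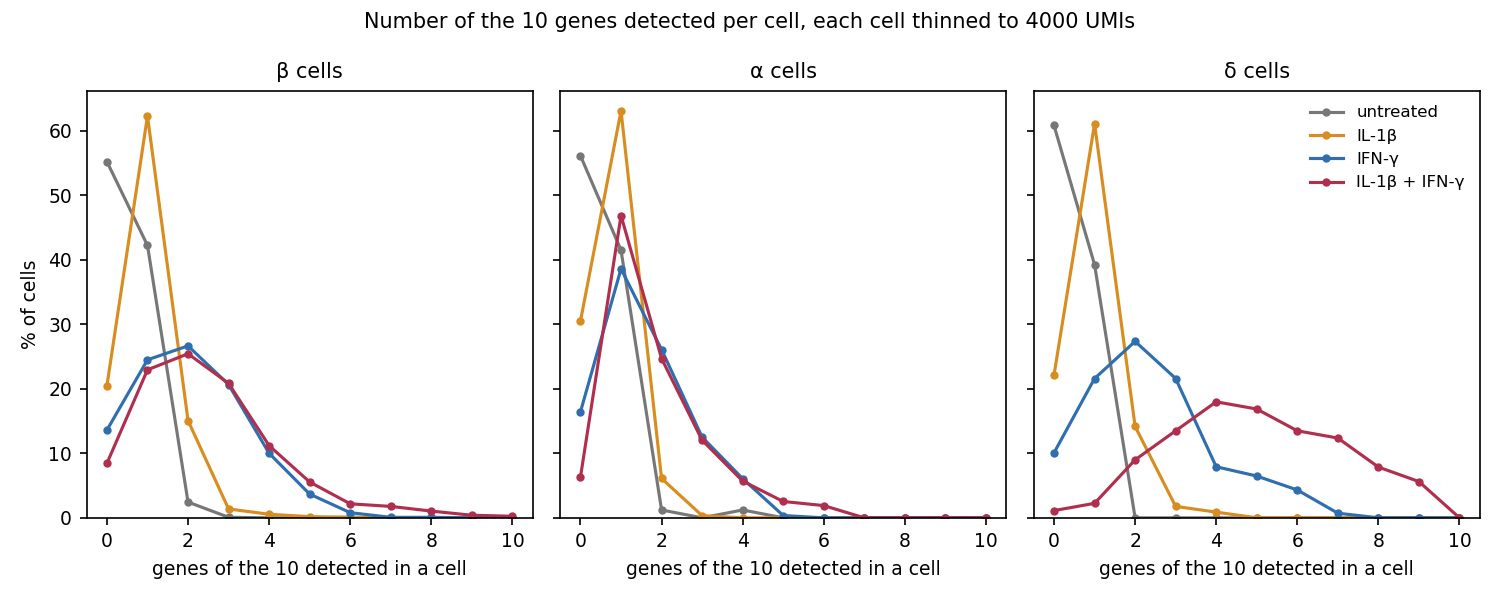
Share of cells (percent, vertical axis) by how many of the 10 genes were detected in the cell (horizontal axis), for β-, α- and δ-cells of each library after thinning every cell to 4000 UMIs. Untreated cells pile up at 0 and cells with IL-1β at 1, while δ-cells with both cytokines peak at 4 genes and reach 9.

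Co-detection was measured by splitting β-cells on *Rsad2* after thinning. With both cytokines, *Ifit1* was found in 65.0% of the 254 β-cells with *Rsad2* (58.7 to 70.8) and 31.4% of the 989 without (28.6 to 34.4), and *Ifit3* in 35.0% (29.2 to 41.3) and 10.1% (8.30 to 12.2). *Ifit2* was found in 28.7% and 9.81%, and *Isg15* in 40.9% and 23.2%. Over the other 9 genes the median difference was 14.4 percentage points and the intervals were apart and higher in cells with *Rsad2* for 8, the exception being *Oas1a*, against 2.20% of 9276 genes found in at least 20 of these cells. With IFN-γ alone the median difference was 4.30 points over the 172 cells with and 1078 without *Rsad2*, and the intervals were apart for 2 of 9, against 0.867% of 9807 genes. Whether 2 intervals come apart depends on how many cells hold a gene and on the size of the groups. The shares over all genes, many of them found in few cells, and the counts of the 2 libraries are thus not like for like. β-Cells with *Rsad2* also had a lower insulin share with both cytokines (median 27.9% against 33.3% of UMIs). Each other gene taken as the splitting gene gave a larger median difference with both cytokines than with IFN-γ, from 5.86 points for *Isg20* to 29.9 for *Ifit3b* with both.

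**Figure D3:**
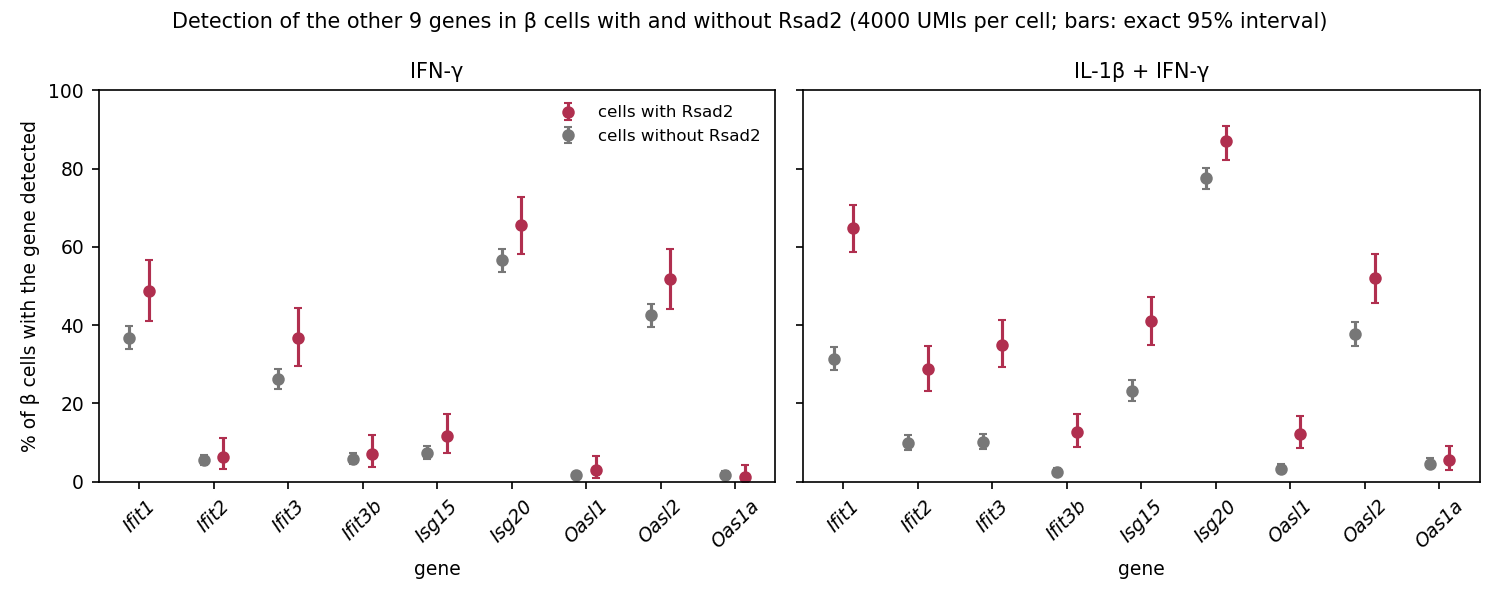
Share of β-cells (percent) in which each of the other 9 genes was detected, in cells with *Rsad2* (red) and without (grey), for IFN-γ (left) and both cytokines (right), at 4000 UMIs per cell; bars are exact binomial 95% intervals. With both cytokines the red points stand clear of the grey ones for all genes but *Oas1a*; with IFN-γ most intervals overlap.

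At the other end, 170 thinned β-cells with IFN-γ and 105 with both cytokines had none of the 10 genes. Compared with the cells that had at least 3, with genes chosen after their values were seen and levels from the thinned cells, *Irf1*, a transcription factor gene and early IFN-γ target, was at 131 against 266 CPM with IFN-γ and 162 against 383 with both. *Gbp2*, another IFN-γ target not among the 10, was at 387 against 1125 and 814 against 2311. *Hspa1a*, a heat shock chaperone, went in reverse, at 653 against 69.2 with IFN-γ and 690 against 152 with both. Median depth before thinning was 10004 against 11254 UMIs with IFN-γ and 12307 against 12090 with both. The part of free RNA in the UMIs of these genes in cells with none was not tested.

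With both cytokines δ-cells had the highest levels among endocrine cells for all of the genes but *Rsad2*, with all UMIs in the totals; with hormone genes left out, *Isg20* was 1.01-fold the β-cell level in δ-cells and 1.39-fold in PP-cells, and *Oasl2* 0.988-fold in δ-cells. *Isg15* in δ-cells was at 8.76 CPM untreated, 14.2 after IL-1β, 95.5 after IFN-γ and 757 after both (693 to 826), *Ifit3* at 4.38, 5.15, 135 and 624, and *Ifit2* at 2.19, 7.72, 104 and 513. Against β-cells of the same library, *Isg15* was 6.12-fold higher (5.54 to 6.76) and *Ifit3* 7.81-fold (6.97 to 8.73). *Ifit2* was 8.42-fold (7.42 to 9.54) and *Ifit3b* 9.63-fold higher (7.57 to 12.2). *Rsad2* was not: it stood at 153 CPM in δ-cells and 163 in β-cells (ratio 0.940, 0.763 to 1.15). Of the 10 genes 5 were at least 2-fold higher in δ- than in β-cells with both cytokines, against 24.7% of 11154 genes, and the median gene was 1.40-fold higher; insulin took 33.5% of β-cell UMIs, and with hormone genes left out of the totals the ratios of *Isg15*, *Ifit3*, *Ifit2* and *Ifit3b* were 4.50, 5.73, 6.19 and 7.07. With IFN-γ alone 3 of 10 were past 2-fold (15.3%).

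The δ-cell levels with both cytokines were not carried by a few cells. At 4000 UMIs, 87.6% of 89 δ-cells had at least 3 of the 10 genes (79.0 to 93.7), against 41.0% of 139 with IFN-γ (32.7 to 49.7), 2.65% with IL-1β and 0 of 51 untreated cells, for which the exact interval reaches 6.98%. *Ifit2* was found in 67.4% of thinned δ-cells with both cytokines and 13.7% of β-cells, *Ifit3* in 66.3% and 15.2%, and *Isg15* in 73.0% and 26.8%. Called as above, 9 of 10 genes were higher with both cytokines than with IFN-γ in δ-cells (9.42% of all genes), though *Oasl1* and *Oas1a*, with 7 and 9 UMIs in the IFN-γ library, met the count minimum only through the combined one. In this comparison *Isg15* was 7.93-fold (6.43 to 9.84) and *Ifit3* 4.62-fold (3.83 to 5.60) higher, where in β-cells *Ifit3* was not higher. There were 54 untreated δ-cells, and untreated counts were 0 to 4 UMIs for all genes but *Isg20*, so ratios against untreated are loose. The other genes could meet the count minimum against untreated only by being high in the treated library, and the counts against untreated in δ-cells, 9 of 9 with both cytokines (12.9% of all genes), 7 of 8 with IFN-γ (5.72%) and 2 of 2 with IL-1β (10.4%), are largely fixed by that minimum and are no evidence of a difference.

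α-Cells had lower induced levels than β-cells for most of the genes. With both cytokines *Rsad2* was at 40.9 CPM in α-cells and 163 in β-cells (0.252-fold, 0.191 to 0.326), *Oasl2* at 43.0 and 153, and *Ifit1* at 73.6 and 195. None of the 10 was 2-fold higher in α- than in β-cells with both cytokines (13.7% of all genes). *Isg20* was the exception at 618 CPM, 1.15-fold (1.07 to 1.23) the β-cell level, though 0.879-fold with hormone genes left out of the totals. At 4000 UMIs, 22.2% of α-cells with both cytokines had at least 3 of the genes (15.9 to 29.4), and 18.9% with IFN-γ (14.5 to 24.02), intervals that overlap.

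The untreated α-cell values rested on 1 cell of 89, which held 54 of the 69 UMIs of the 9 genes other than *Isg20* (78.3%), from 5 genes. It supplied all 17 *Ifit3*, all 9 *Ifit2* and all 4 *Ifit3b* UMIs and 13 of 15 *Rsad2* UMIs. With it, *Ifit3* was 2.30-fold higher with IFN-γ than untreated, and without the highest cell of each class and library it was at least 12.4-fold higher. Of the 10 genes only *Ifit1* and *Isg20* held 20 UMIs in untreated α-cells, so the counts against untreated are largely fixed by the minimum and by that cell and are no evidence of a difference: 5 of 8 tested genes were higher with IFN-γ (6.67% of all genes) and 7 without the highest cells, 7 of 7 were higher with both cytokines (9.59%), and with IL-1β 1 of 3 was higher (*Isg20*, 9.02%) and 1 lower (*Rsad2*, 8.61% lower).

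Adding IL-1β to IFN-γ went with lower levels of some of the genes and higher levels of others in α-cells. *Oasl2* fell from 92.7 to 43.0 CPM (0.464-fold, 0.344 to 0.618) and *Ifit1* was at 121 and 73.6 (0.608-fold, 0.482 to 0.763, short of 2-fold), while *Isg20* rose from 189 to 618 (3.27-fold, 2.92 to 3.67) and *Isg15* from 26.5 to 67.3 (2.54-fold, 1.83 to 3.55). Of the 10, 5 were at least 2-fold higher (5.95% of all genes) and 1 at least 2-fold lower (16.5% lower). *Oasl1*, among the 5, held 7 UMIs in the IFN-γ library and met the count minimum only through the combined one. The lower call, *Oasl2*, ends over the median of all genes (0.559-fold) and with 10 CPM added to both levels (0.516-fold). With 10 CPM added *Ifit2* (1.95-fold), *Rsad2* (1.94-fold) and *Oasl1* (1.62-fold) also fall short of 2-fold, which leaves 2 higher genes (3.33% of all genes). At 4000 UMIs per cell 3 of the genes were at least 2-fold higher (6.50%).

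**Figure D4:**
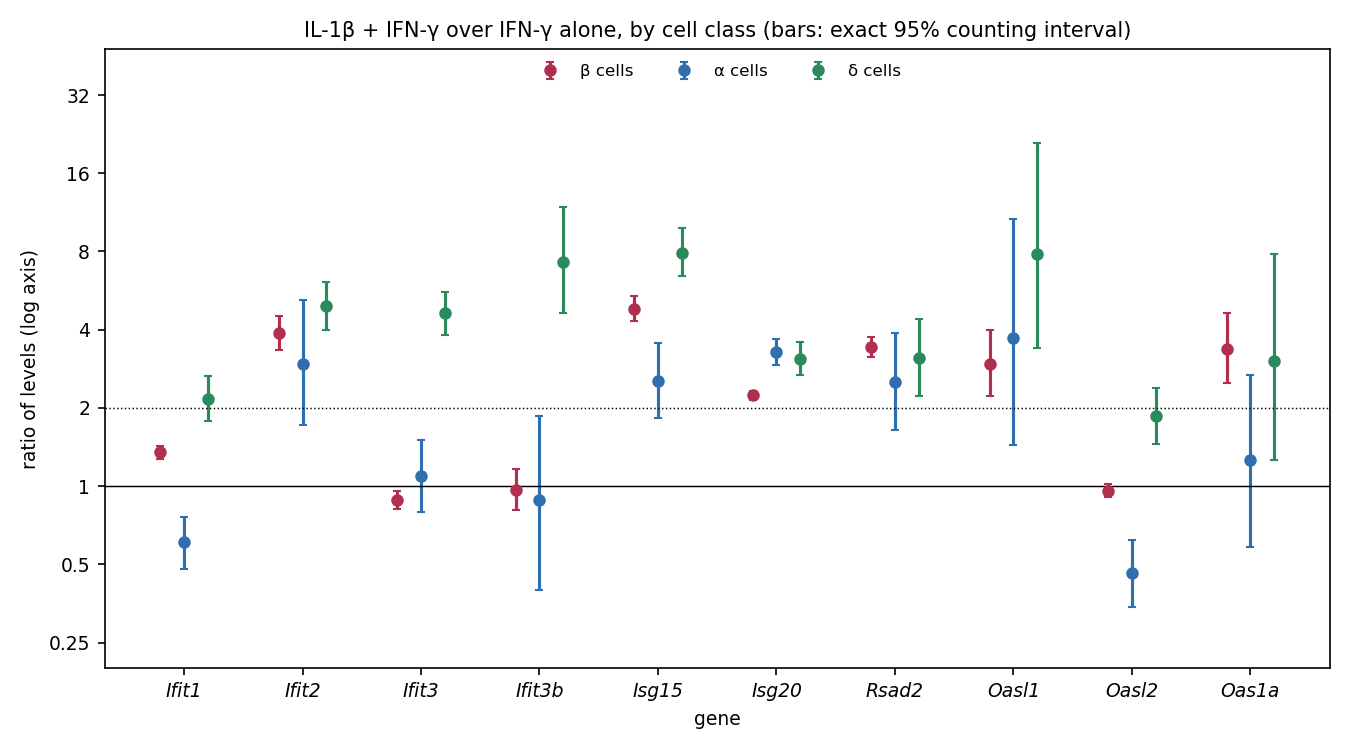
Ratio of the level with both cytokines to the level with IFN-γ alone, on a log axis, for each gene in β-, α- and δ-cells; bars are exact 95% counting intervals, the solid line marks 1 and the dotted line 2. *Isg20*, *Ifit2*, *Isg15*, *Rsad2* and *Oasl1* lie above 2 in all 3 classes, whereas *Ifit1* and *Oasl2* lie below 1 in α-cells and above it in δ-cells.

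In endothelial-, macrophage-, mesenchymal- and ductal-like cells *Isg15* and *Ifit3* were above 200 CPM with IFN-γ alone, and *Isg20* was low in endothelial- and macrophage-like cells. In the 45 endothelial-like cells with IFN-γ, *Isg15* was at 654 CPM, *Ifit3* at 452, *Ifit2* at 358 and *Rsad2* at 299, all far above β-cells of that library, and 92.0% of 25 thinned cells had at least 3 of the genes. With both cytokines (22 cells) *Isg15* was at 1115, *Ifit3* at 337, *Ifit2* at 235 and *Rsad2* at 357. None of 8 tested genes was 2-fold higher with both than with IFN-γ (4.29% of all genes). No gene of the 10 held 20 UMIs in untreated endothelial-like cells, so no count against untreated is given. *Isg20* gave 0 UMIs in endothelial-like cells with both cytokines, where the floor of 3 UMIs stands at 14.7 CPM. In that library β-cells were at 539 CPM.

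Macrophage-like cells, 30 to 41 per library, gave UMIs of all 10 genes when untreated, with *Isg15* at 101 CPM, *Oasl2* at 57.2 and *Oasl1* at 37.0. With IL-1β alone *Isg15* was at 28.7 (0.284-fold, interval below 1) and *Rsad2* and *Oasl1* gave no UMI. *Isg15* was at 235 with IFN-γ and 566 with both, and it was the only gene with 20 UMIs in the untreated cells, so no count against untreated is given here either. In the 20 mesenchymal-like cells with IFN-γ, *Isg15* was at 752 and *Ifit3* at 388 CPM while *Rsad2*, *Oasl1* and *Oas1a* were at 0. The floor of 3 UMIs stands at 17.4 CPM there. In the 17 ductal-like cells with IFN-γ, *Ifit3* was at 710 and *Isg15* at 760 CPM. *Isg20* was at 158 there, the highest value outside the endocrine and acinar-like cells. Among the 21 acinar-like cells with IFN-γ, 10 had none of the 10 genes and 4 had at least 3, and 1 cell held 48 of the 67 UMIs of the 9 genes other than *Isg20* (71.6%).

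**Figure D5:**
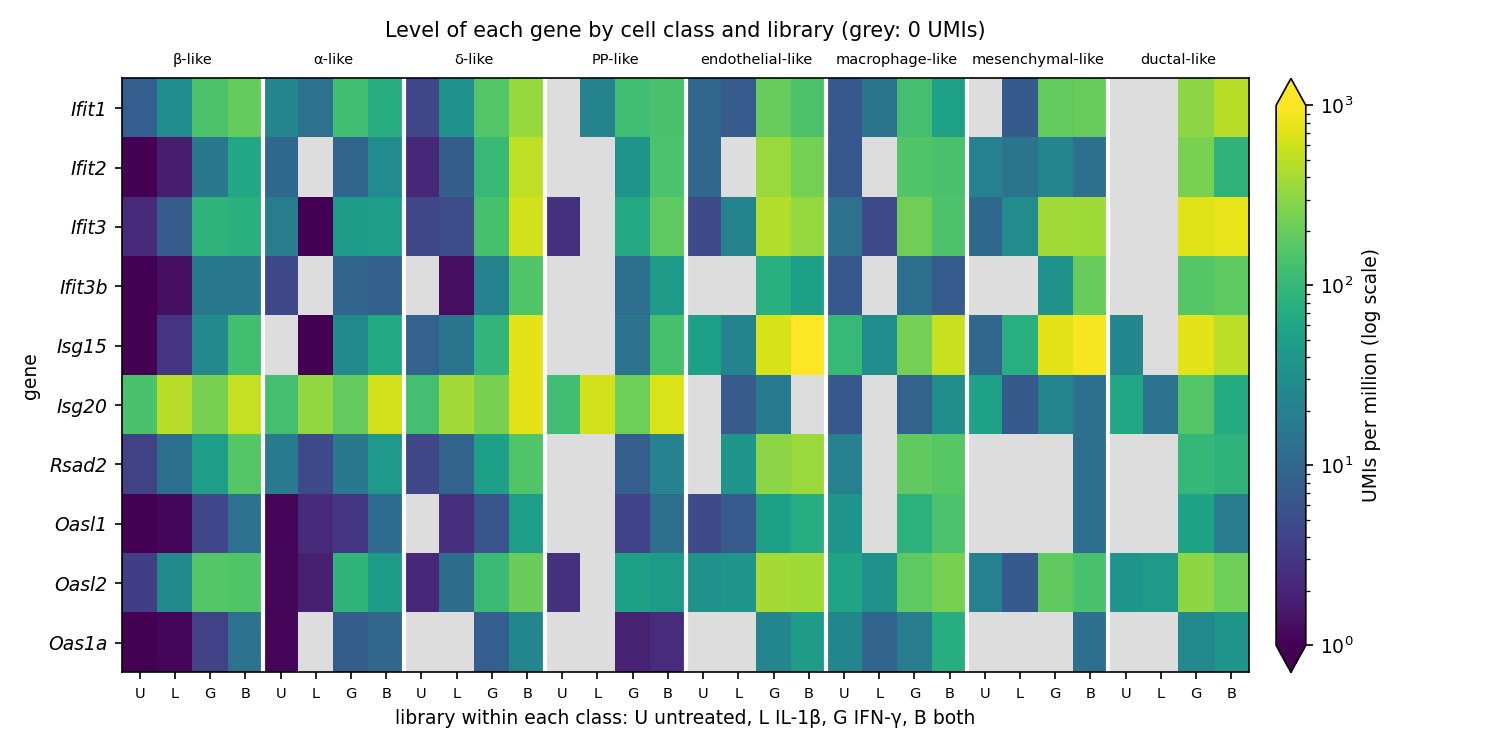
Level of each gene in CPM (color, log scale; grey is 0) in 8 cell classes, each with its untreated (U), IL-1β (L), IFN-γ (G) and combined (B) library. *Isg20* is bright in β-, α-, δ- and PP-cells and dim in endothelial- and macrophage-like cells, and the remaining genes are brighter in G and B than in U and L in most classes; the scale runs from 1 to 1000.

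The other genes of the pathway were counted from lists. Of 9 interferon ligands none had 20 UMIs in any pair of libraries in β-cells. *Ifnl2* and *Ifnl3*, the type III interferons, were the exception to silence: each gave 23 UMIs in kept cells with both cytokines, 0 and 1 with IL-1β, and 0 untreated and with IFN-γ. With both, 1 or the other was found in 20 of 1275 β-cells (1.57%, 0.961 to 2.41) and 6 of 104 δ-cells (5.77%, 2.15 to 12.1) but 0 of 162 α-cells, for which the exact interval reaches 2.25%, and cells with either had a median of 4.5 of the 10 antiviral genes against 4.0 in the rest among β-cells (median depths 15505 and 12137 UMIs) and 6.0 against 6.0 among δ-cells. *Ifnb1* gave 4 UMIs, all in 1 macrophage-like cell with IFN-γ that had 7 of the 10 genes, *Ifnk* gave 1 UMI in a β-cell of the same library, and *Ifna1*, *Ifna2*, *Ifna4*, *Ifne* and *Ifng* gave none.

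Several receptor genes were higher with IL-1β in β-cells. *Ifngr2*, the signaling chain of the IFN-γ receptor, was at 5.64 CPM in untreated β-cells, 58.1 after IL-1β, 5.31 after IFN-γ and 51.2 after both, a 10.3-fold (8.40 to 12.7) difference with IL-1β. *Il10rb*, shared by the IL-10 and type III interferon receptors, was 3.89-fold and *Ifngr1* 3.61-fold higher with IL-1β. Of 5 tested receptor genes 4 were higher with IL-1β, 1 with IFN-γ, 4 with both and 2 with both against IFN-γ, beside 17.1%, 6.31%, 11.7% and 6.27% of all genes, and with hormone genes left out of the totals the first 3 counts were 3 (7.88%), 0 (3.51%) and 1 (9.10%). In δ-cells 4 of 5 were higher with IL-1β (*Ifnar1*, *Ifnar2*, *Ifngr2* and *Il10rb*; 10.4% of all genes). In α-cells 1 of 5 was higher with IL-1β (*Ifngr2*; 9.02% of all genes), and *Ifngr1* was at 0.387-fold (0.139 to 1.01) the untreated level with both, on 8 UMIs against 13. With 54 untreated δ-cells and 89 untreated α-cells, genes of low level can meet the count minimum mainly through the treated library. The receptor counts against untreated in these 2 classes can thus be fixed in part by that minimum and are no evidence of a difference. *Ifnlr1*, the specific chain of the type III receptor, stayed between 0.150 and 0.610 CPM in β-cells.

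Most signaling genes and the genes of the ISG15 machinery were higher with IFN-γ, with few further 2-fold changes with both. *Irf1* was at 19.8 CPM in untreated β-cells, 40.9 after IL-1β, 206 after IFN-γ and 329 after both, and *Irf7* at 9.04, 9.65, 65.4 and 77.3. *Stat2* and *Irf9*, parts of the complex that binds the response element, were 8.28- and 6.25-fold higher with IFN-γ, and 1.01- and 1.05-fold with both against IFN-γ. Of 9 signaling genes 6 were higher with each single cytokine and with both, and 1 with both against IFN-γ (*Jak2*), beside the same shares of all genes, but with hormone genes left out of the totals only 1 was higher with IL-1β (7.88% of all genes), 5 with IFN-γ (3.51%) and 6 after both (9.10%). Of the 5 genes for ISG15 conjugation and removal, 3 were higher after IL-1β (17.1% of all genes), 5 after IFN-γ (6.31%), 5 after both (11.7%) and 0 with both against IFN-γ (6.27%). With hormone genes left out these counts were 2, 4, 4 and 0, beside 7.88%, 3.51%, 9.10% and 7.001% of all genes. With both cytokines *Herc6*, the mouse ISG15 ligase, was 26.3-fold, *Ube2l6*, its conjugating enzyme, 9.81-fold and *Usp18*, which removes ISG15, 8.40-fold above untreated. *Isg15* itself was 165-fold (99.8 to 296) above untreated, or 93.8-fold at 4000 UMIs per cell.

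Among other genes of the OAS pathway, 9 of 10 listed genes were in the tables and 5 were tested in β-cells with both cytokines against untreated. Of these 4 were higher (11.7% of all genes), and with hormone genes left out 4 were higher (9.10%) and 1 was lower (18.3%). *Oas2*, *Oas3* and *Oas1g* each held fewer than 20 UMIs untreated, so the count of higher genes is largely fixed by the minimum. *Oas3* was at 0.0499 CPM untreated and 5.57 with both, *Oas2* at 0.849 and 19.8, and *Oas1g* at 0.150 and 4.54. Of the 2 other IFIT genes *Ifit1bl1* was at 0.0499 CPM untreated, which is 1 UMI, and 7.04 with both cytokines, and it met the count minimum only through the treated library. Of 19 other interferon-stimulated antiviral genes in the tables, 9 of 15 tested were higher with IL-1β, 16 of 17 with IFN-γ, 16 of 17 with both, and 3 of 18 with both against IFN-γ, beside 17.1%, 6.31%, 11.7% and 6.27% of all genes; with hormone genes left out the first count was 7 (7.88%) and the last 5 (7.001%). Of the 19, 6 held fewer than 20 UMIs untreated, among them the 3 named next, and could meet the minimum against untreated only through the treated library, so these counts are in part fixed by it. *Zbp1*, a sensor of left-handed nucleic acid, was at 0.200, 5.59, 46.2 and 51.5 CPM, *Ifi44* at 0.350, 1.22, 18.2 and 19.5, and *Mx1*, a dynamin-like GTPase, at 0.350, 0.914, 1.47 and 11.9. *Cmpk2*, the neighbor of *Rsad2* on chromosome 12 that encodes a nucleotide kinase, was 4.42-fold higher with IFN-γ and 1.14-fold (1.04 to 1.27) with both against IFN-γ, where *Rsad2* was 3.43-fold.

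The genes whose pattern was most like the mean of the 10 were ranked by Pearson correlation of log2 levels (10 CPM added, each gene centered) over the 12 points formed by β-, α- and δ-cells in 4 libraries. The points share libraries and depth, so the correlation is a description. Of 8183 genes ranked, the 10 members included, the 10 closest outside the group were *Dhx58*, an RNA sensor of the RIG-I family (r = 0.981), *H2-T22* (0.979), *9930111J21Rik2* (0.973), *Parp14* (0.969), *Znfx1* (0.964), *Trafd1* (0.963), *Rnf213* (0.957), *Tap2* (0.955), *Ifi44* (0.953) and *1110038F14Rik* (0.951). Of the 10 genes themselves, 9 lay between 0.901 (*Oasl2*) and 0.970 (*Ifit3*) and *Isg20* at 0.644. Each of the 10 is part of the mean it was compared with, so these values are in part fixed in advance.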

How the data were processed

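Islet cells were profiled by droplet-based 3′-end single-cell RNA sequencing, 1 library per condition, so groups hold 1 replicate each and no test between conditions was possible. The deposited matrices hold raw UMI counts per gene and cell barcode, made by the authors with Cell Ranger on genome build mm10 (submitters' processing notes; the matrix headers name software version 3.0.0) and an annotation release not given in the sources used here. Kit versions differ between the labels and the methods. Totals were 50731370 UMIs untreated, 20056630 from IL-1β, 31209339 from IFN-γ and 25716645 from the combination, and depth and library cannot be told apart from treatment.

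From these counts, cells were kept at 200 to 4000 genes and at most 12% mitochondrial UMIs, and classes were assigned per cell from hormone shares or at least 4 markers. UMIs were summed per class and library and divided by the class total (CPM, per 1000000 UMIs). Exact Poisson and Clopper-Pearson 95% intervals, and exact conditional intervals for ratios, cover counting error only; against 0 UMIs a floor of 3 UMIs was used. A gene was called at a ratio of 2 where the pair held 20 UMIs. For shares of cells, each cell was thinned to 4000 UMIs. All 10 genes are named; from each pathway list with more than 3 tested genes the 3 with the largest ratio in β-cells with both cytokines were named, and always *Cmpk2*, *Usp18*, *Stat2*, *Irf7* and *Irf9*. Some genes that this rule names are not reported here. The genes and lists were chosen with earlier results of these data known. Doublets were not removed in the values reported; Scrublet called 53 untreated cells, 17 from IL-1β, 23 from IFN-γ and 13 from the combination. Alternatives were other cell filters, classes from clusters, a stricter hormone rule, doublets left out, other totals, means over cells, 10 CPM added, thinning and no count minimum. Positions are from GENCODE M21 and promoter windows from RefSeq, with an entry for all 10 genes. Python 3.11.15, numpy 2.4.6, scipy 1.17.1 and scanpy 1.11.5 were used; the ratio code was tested on simulated data.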

Additional observations from a re-analysis of the deposited data

Results flagged for a closer look

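Some genes of the group differed in direction between cell classes of at least 30 cells in both libraries, judged by counting intervals on opposite sides of 1; the differences between classes were not tested. With both cytokines against IFN-γ, *Ifit1* was higher in β-cells (1.35-fold) and δ-cells (2.17-fold) but lower in α-cells (0.608-fold) and macrophage-like cells (0.415-fold). In the same comparison *Ifit3* was higher in δ-cells (4.62-fold) and PP-cells (2.85-fold, where 1 cell held 31 of the 76 UMIs with both, and the levels without the highest cells were 110.7 and 59.1 CPM) and lower in macrophage-like cells (0.656-fold), while its β-cell value (0.884-fold) turned to 1.10-fold over the median of all genes, and *Oasl2* was higher in δ-cells (1.86-fold) and lower in α-cells (0.464-fold).

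With IL-1β against untreated, *Isg15* was higher in β-cells (3.797-fold) and lower in macrophage-like cells (0.284-fold). The β-cell ratio was 2.78-fold with hormone genes left out of the totals and 1.19-fold with 10 CPM added to both levels, short of 2-fold. *Rsad2* was higher in β-cells (3.12-fold) and lower in α-cells (0.277-fold), where 1 untreated cell held 13 of the 15 untreated UMIs. Without that cell *Rsad2* stood at 2.24 CPM in untreated α-cells against 4.58 with IL-1β and the pair no longer held enough UMIs to be called.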

How the results depend on the processing

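No paired analysis was possible because each condition has 1 replicate. Over the alternatives, 135 counts of called genes stayed within 1.5 times the reported count and 9 did not; of the ratios of single genes 1004 stayed within the counting interval of the reported value, 126 left it and 1 turned, and of the levels 963 stayed and 117 left it. With 10 CPM added to both levels, which shrinks the ratios of low genes, the count in β-cells with IL-1β was 3 instead of 6 (5.64% of all genes at this setting), and in α-cells it was 3 instead of 5 with IFN-γ (1.84%), 4 instead of 7 with both (5.92%) and 2 instead of 5 with both against IFN-γ (3.33%). In β-cells *Isg15* with both cytokines was then 12.4-fold instead of 165-fold above untreated, and *Oasl2* with IL-1β 2.67-fold instead of 7.24-fold. Thinning to 4000 UMIs left 3 genes in α-cells with both against IFN-γ and 1 instead of 2 in δ-cells with IL-1β, where the stricter hormone rule also left 1 and no count minimum gave 5. Without the minimum, α-cells with IL-1β had 2 instead of 1. The shares of cells with at least 3 of the genes fell under thinning, to 43.2% of β-cells and 22.2% of α-cells. *Ifit3* in β-cells with both against IFN-γ turned from 0.884-fold to 1.10-fold over the median of all genes. The median co-detection difference ranged from 14.4 to 17.8 percentage points. Counts against untreated in α- and δ-cells are largely fixed by the count minimum. The settings that leave out the highest cell and divide by the median were added after the data were seen. With 1 library per condition, spread between cultures is unknown, and cells with over 4000 genes were most often removed from the untreated library (843 cells). In classes with few cells, a gene at 0 may lie under the floor of 3 UMIs.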
